A study of Mus musculus with 4 samples.

Results

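The TGF-beta genes described here are 10: the ligands Tgfb1, Tgfb2 and Tgfb3, the receptors Tgfbr1, Tgfbr2 and Tgfbr3, the latent TGF-beta binding proteins Ltbp1, Ltbp2 and Ltbp3, and Tgfbi, a secreted matrix protein named for its induction by TGF-beta. They were chosen by symbol, and all 10 had a row in each of the 4 samples, among 32285 genes in the single-cell tables and 19465 in the spatial tables. Tissue of the tenotomy site was collected 7 days after burn and tenotomy, an injury that leads to heterotopic ossification (HO). The 2 single-cell RNA libraries came from mice whose genotype label joins Hoxa11-CreER, ROSA-LSL-TdTomato and Hif1a fl/fl. The mice had been given tamoxifen at 75 mg/kg for 5 days, and the cells were unsorted. One library pooled replicates 1 and 2 and the other held replicate 3. Hoxa11-CreER drives recombination in mesenchymal cells of the zeugopod, and the labels do not state whether Cre was present in each mouse. Hoxa11 RNA was also counted in smooth muscle cells and pericytes, with 27 UMIs in the pooled library and 7 in replicate 3. Recombination was not tested in any cell class. Littermates without Cre were not analysed here, so nothing below compares genotypes. The 2 Visium sections, A1 and B1, came from 10-week-old male C57BL/6 wild-type mice with the same injury, and the labels do not say whether they came from separate mice. The tables of cells and sections therefore differ in genotype as well as in method, and each was tested on its own.

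TGF-beta is secreted as a latent complex, in which the mature dimer is held by its own propeptide and the propeptide is bound to an LTBP, which anchors the complex in the matrix. Integrins, proteases and thrombospondin release the ligand. The free ligand binds TGFBR2, which recruits and phosphorylates TGFBR1, and SMAD2 and SMAD3 carry the signal to the nucleus. TGFBR3, also called betaglycan, is a co-receptor without kinase activity that presents ligand, TGF-beta2 above all. In wounds the pathway is known for matrix production by fibroblasts, and in models of HO for the recruitment of mesenchymal progenitor cells (MPCs).

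RefSeq promoters on GRCm38.p6, 250 bases before to 50 after a start site, were at hand for 8 of the 10 genes. The windows of Tgfb1, Tgfb2 and Ltbp1 are shown, because Tgfb1 and Tgfb2 had their highest levels per 1000000 UMIs in different cell classes, while Ltbp1 had the level pattern most like that of Tgfb2 among these genes. They are Tgfb1 at chr7:25686752-25687051 on the plus strand, Tgfb2 at chr1:186705940-186706239 on the minus strand and Ltbp1 at chr17:75005279-75005578 on the plus strand, written 5′ to 3′.
Tgfb1: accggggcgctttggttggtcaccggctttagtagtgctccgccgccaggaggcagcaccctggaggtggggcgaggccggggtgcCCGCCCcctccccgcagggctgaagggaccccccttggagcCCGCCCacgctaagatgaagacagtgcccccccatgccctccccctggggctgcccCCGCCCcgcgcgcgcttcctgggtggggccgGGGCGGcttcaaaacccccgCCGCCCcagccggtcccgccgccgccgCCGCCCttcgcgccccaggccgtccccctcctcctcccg
Tgfb2: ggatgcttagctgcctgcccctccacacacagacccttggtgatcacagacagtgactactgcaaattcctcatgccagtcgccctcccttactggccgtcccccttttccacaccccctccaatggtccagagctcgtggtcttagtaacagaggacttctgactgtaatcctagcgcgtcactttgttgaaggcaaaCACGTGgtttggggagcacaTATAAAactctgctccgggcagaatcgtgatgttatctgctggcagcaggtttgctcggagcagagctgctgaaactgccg
Ltbp1: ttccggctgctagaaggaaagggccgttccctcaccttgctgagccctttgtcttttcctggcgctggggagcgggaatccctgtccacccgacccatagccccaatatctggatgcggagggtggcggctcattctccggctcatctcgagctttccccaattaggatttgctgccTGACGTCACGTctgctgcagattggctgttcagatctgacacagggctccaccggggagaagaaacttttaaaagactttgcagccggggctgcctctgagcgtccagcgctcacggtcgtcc
Capitals mark matches, on either strand, to TATAAA, to the GC box GGGCGG, to the hypoxia-response core ACGTG and to the cyclic AMP response element TGACGTCA. The Tgfb1 window held 6 GC boxes and none of the other 3 motifs. The Tgfb2 window held 1 TATAAA and the palindrome that reads ACGTG on both strands, and no GC box. The Ltbp1 window held 1 TGACGTCA, which overlaps 1 ACGTG. Of 27025 promoters of the same length, 1 per gene, 14.2% held TATAAA, 35.9% GGGCGG, 19.7% ACGTG and 1.88% TGACGTCA. These matches describe the letters of the windows only.

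Of 2303 and 1266 barcodes, 1272 cells of the pooled library and 782 of replicate 3 were kept, with a median of 13579 and 17531 UMIs (unique molecular identifiers, 1 per captured RNA molecule), and 1 barcode stood in both libraries. Cells were put into classes by markers that include none of the 10 genes. The 12 MPC markers included Postn, Tnc and Cthrc1. Whether such markers respond to TGF-beta was not tested, so the gate may not be independent of the pathway. The 8 classes with at least 20 cells in each library were MPCs (243 and 180 cells), fibroblasts (104 and 86), smooth muscle cells and pericytes (99 and 51), endothelial cells (88 and 47), macrophages (191 and 106), T or NK cells (118 and 38), keratinocytes (69 and 48) and Schwann cells (30 and 20). Levels are given in CPM (UMIs of a gene per 1000000 UMIs of a class). The summed level of the 12 MPC markers was 18454 and 19272 CPM in MPCs and 5344 and 7108 CPM in fibroblasts. Fibroblasts thus also carried MPC markers, and these markers were used to split the classes. Whether the MPC and fibroblast classes are ends of a range was not tested. Between them lay 17 and 12 mesenchymal cells, which were put in neither class and left out of the fit. Sections A1 and B1 held 3504 and 3185 spots with at least 100 UMIs, and a median of 454 and 516 UMIs over all spots under tissue. All values of the pooled library and of A1 are given first within a class, then those of replicate 3 and of B1. Intervals are exact Poisson 95% intervals and cover counting error only.

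The ligands fell into 2 patterns. Tgfb1 was highest in immune and endothelial cells: its level was 294 (272 to 317) and 293 (267 to 320) CPM in macrophages, 289 (255 to 325) and 305 (249 to 371) CPM in T or NK cells, and 176 (156 to 199) and 245 (211 to 283) CPM in endothelial cells. The intervals of macrophages and T or NK cells overlapped in both libraries. MPCs had 75.6 and 87.9 CPM, smooth muscle cells and pericytes 69.2 and 98.6, and fibroblasts 47.9 and 46.8 CPM. Schwann cells had 34.9 and 53.6 CPM and keratinocytes 12.2 and 8.50 CPM, the lowest class in both libraries.

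Tgfb2 and Tgfb3 were held by mesenchymal and mural cells. The Tgfb2 level was 192 and 193 CPM in MPCs, 98.0 and 92.6 CPM in fibroblasts, and 122 and 85.9 CPM in smooth muscle cells and pericytes. The last 2 classes changed places between the libraries. Tgfb2 was at 17.0 and 15.9 CPM in endothelial cells, 10.5 and 25.2 CPM in Schwann cells, and at most 2.83 CPM in macrophages, T or NK cells and keratinocytes. Tgfb3 had 94.3 and 115 CPM in MPCs, 83.5 and 86.8 CPM in smooth muscle cells and pericytes, 59.4 and 64.9 CPM in fibroblasts, and no more than 13.5 CPM in any other class of either library. The plot of levels by cell class shows all 10 genes.

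**Figure D1:**
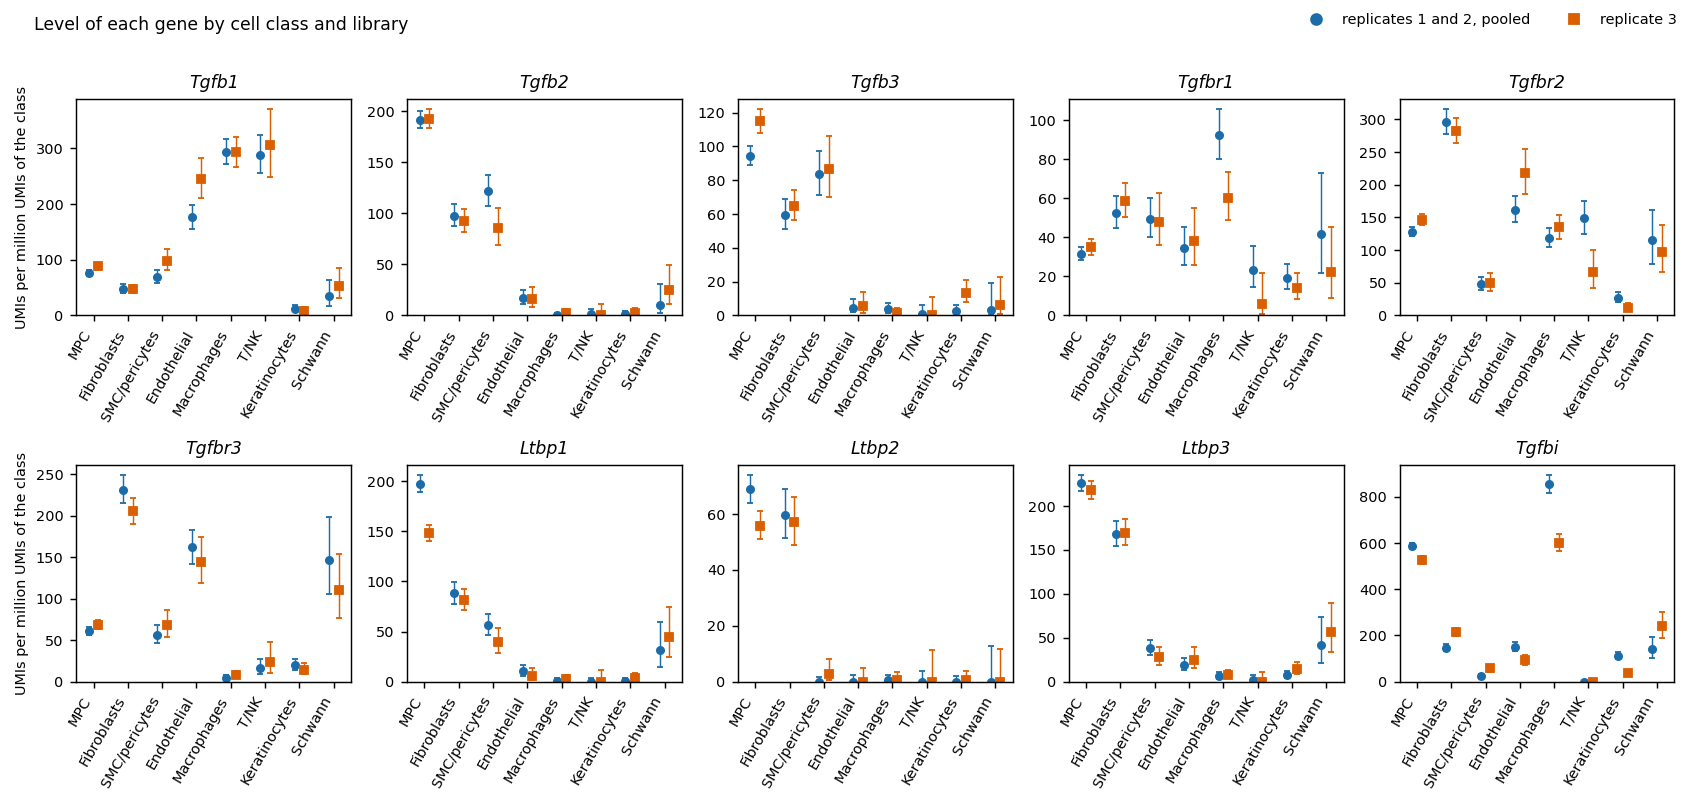
Level of each gene (y axis, UMIs per 1000000 UMIs of the class, linear from 0) in 8 cell classes (x axis) and 2 libraries (blue circles, replicates 1 and 2 pooled; orange squares, replicate 3), with exact Poisson 95% intervals as bars. Tgfb1 was highest in macrophages and T or NK cells (289 to 305 CPM), whereas Tgfb2, Tgfb3, Ltbp1, Ltbp2 and Ltbp3 were highest in MPCs in the pooled library.

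The 3 receptors were spread differently. Tgfbr2, the type II receptor that binds ligand, was highest in fibroblasts at 296 and 283 CPM, followed by endothelial cells at 162 and 218 CPM and MPCs at 128 and 146 CPM. It was lowest in keratinocytes at 27.0 and 12.1 CPM. Tgfbr3 was again highest in fibroblasts, at 232 and 206 CPM, then in endothelial cells at 162 and 144 CPM and Schwann cells at 147 and 110 CPM, and it was near the floor of detection in macrophages at 4.03 and 7.44 CPM. Tgfbr1 encodes the type I receptor kinase. Its highest class was macrophages, at 92.3 (80.2 to 106) and 60.2 (48.8 to 73.4) CPM, and in replicate 3 the fibroblast level of 58.7 CPM lay within the macrophage interval.

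The latency proteins were mesenchymal. Ltbp1, which binds the propeptide of the ligands, had 198 and 148 CPM in MPCs, 88.0 and 81.6 CPM in fibroblasts, and 56.5 and 39.8 CPM in smooth muscle cells and pericytes, and no UMI in T or NK cells of either library. Ltbp3, another LTBP that binds the latent ligand, had 226 and 218 CPM in MPCs and 168 and 170 CPM in fibroblasts, and at most 56.8 CPM in any other class. Ltbp2, a microfibril protein of this family that does not bind latent TGF-beta, was detected in MPCs at 68.9 and 55.8 CPM and in fibroblasts at 59.7 and 57.1 CPM. All other classes together held 6 Ltbp2 UMIs, and endothelial, T or NK and Schwann cells held 0, where 3 UMIs per library would have been at most 3.97, 9.07 and 10.5 CPM.

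Tgfbi stood in macrophages and MPCs at once. Its level was 855 and 602 CPM in macrophages and 588 and 527 CPM in MPCs, against 147 and 213 CPM in fibroblasts. T or NK cells held 0 Tgfbi UMIs in both libraries, where 3 UMIs would have been 3.18 and 9.07 CPM. The 9 macrophage markers summed to 24.0 and 11.7 CPM in MPCs, against 20435 and 20235 CPM in macrophages.

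MPCs were compared with the mean of the 7 other classes to place the progenitors among senders and receivers. Of the 10 genes, 8 were higher in MPCs and 0 lower (edgeR quasi-likelihood test, Benjamini-Hochberg adjusted p under 0.05), beside 29.5% of all 12776 genes tested that were higher and 12.7% that were lower. Of the 10, 0 were lower at an unadjusted p under 0.05, 0 with DESeq2 and 0 with limma. The ligands Tgfb2 and Tgfb3 were 21.9-fold (log2 4.45 ± 0.17 SE, adjusted p = 2.86e-13) and 14.0-fold higher (log2 3.80 ± 0.20, adjusted p = 4.71e-11), and Ltbp3 was 13.1-fold higher (log2 3.71 ± 0.13, adjusted p = 1.92e-13). The size of the ligand folds depends on classes in the mean with very low levels of Tgfb2 and Tgfb3. Fibroblasts, smooth muscle cells and pericytes lay much closer to MPCs, as their levels above show. Tgfbr2 (log2 0.62 ± 0.18, adjusted p = 0.00841) and Tgfbr3 (log2 0.60 ± 0.14, adjusted p = 0.00216) were slightly higher. Tgfb1 differed by a log2 ratio of 0.06 ± 0.13 (adjusted p = 0.827) and Tgfbr1 by 0.03 ± 0.18 (adjusted p = 0.968). For Ltbp1, Ltbp2 and Tgfbi some class held no UMI in either library, so a log2 mean over classes depends on the prior count and no fold is given. All 3 passed in MPCs with edgeR and with limma on log2 CPM, an alternative chosen after seeing the data (limma adjusted p between 4.37e-06 and 0.00012). The Tgfbr2 result was lost in DESeq2 (adjusted p = 0.0546) and limma (adjusted p = 0.0919), and Tgfbr3 did not with limma (adjusted p = 0.0614) or with a stricter gate (adjusted p = 0.101).

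Fibroblasts had the most genes above the other classes. Of the 10, 9 were higher and only Tgfb1 lower (log2 −0.84 ± 0.16, adjusted p = 0.000308, edgeR), beside 26.8% of all genes higher and 9.01% lower. Tgfbr3 was 6.05-fold higher (log2 2.60 ± 0.13, adjusted p = 1.53e-11), Tgfbr2 3.60-fold higher (log2 1.85 ± 0.17, adjusted p = 5.70e-08) and Tgfbr1 1.84-fold higher (log2 0.88 ± 0.19, adjusted p = 0.001). All 3 receptors thus stood above the mean of the other classes in fibroblasts, although Tgfbr1 did not pass with limma (adjusted p = 0.0516). The Tgfbi result did not pass where clusters took the place of the gate (adjusted p = 0.0664).

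MPCs were then set against fibroblasts directly, as the pair of mesenchymal classes. Ligands and Ltbp1 were higher in MPCs and the receptors were lower: 5 of the 10 genes were higher and 3 lower, beside 5.79% and 9.19% of all genes. Tgfb2 was 2.02-fold higher (log2 1.01 ± 0.18, adjusted p = 0.000716, edgeR), with log2 ratios of 0.98 and 1.04 in the 2 libraries. Tgfb1 was 1.72-fold (log2 0.78 ± 0.18, adjusted p = 0.00509) and Tgfb3 1.67-fold higher (log2 0.74 ± 0.21, adjusted p = 0.0239). Ltbp1 was 2.02-fold higher (log2 1.01 ± 0.19, adjusted p = 0.0011) and Tgfbi 3.04-fold (log2 1.60 ± 0.37, adjusted p = 0.00609). The receptors moved the other way in both libraries. Tgfbr3 was lower by a log2 ratio of −1.75 ± 0.17 (adjusted p = 1.56e-06), Tgfbr2 by −1.08 ± 0.23 (adjusted p = 0.00357) and Tgfbr1 by −0.75 ± 0.22 (adjusted p = 0.029). Ltbp2 (log2 0.09 ± 0.22, adjusted p = 0.863) and Ltbp3 (log2 0.39 ± 0.16, adjusted p = 0.133) did not pass.

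How many of these passed depended on the test and on how the classes were drawn. With clusters in place of the gate, Tgfb3 no longer passed (log2 0.41 ± 0.22, adjusted p = 0.246, edgeR). With a stricter gate, Ltbp3 passed (log2 0.52 ± 0.17, adjusted p = 0.0353, edgeR). Of gated fibroblasts, 74.0% and 82.6% fell in fibroblast clusters, and of gated MPCs 91.8% and 92.2% fell in MPC clusters. DESeq2 called 2 genes higher (Tgfb1, adjusted p = 0.000849, and Tgfb2, adjusted p = 0.00151) and 2 lower (Tgfbr3, adjusted p = 3.45e-17, and Tgfbr2, adjusted p = 0.0174). All genes passed less often too, with 4.54% higher and 7.73% lower in DESeq2. With limma only Tgfbr3 passed (adjusted p = 0.00565), beside 1.35% of all genes higher and 2.33% lower. Tgfbr3 was the single gene that passed in all 3 tools. MPCs also had more UMIs per cell, with medians of 48432 and 48827 against 28804 and 36474 in fibroblasts. Per cell, Tgfbr3 had 2.85 and 3.33 UMIs in MPCs against 6.93 and 7.41 in fibroblasts, and Tgfbr2 5.97 and 7.09 UMIs in MPCs against 8.88 and 10.2 in fibroblasts, so both receptors were lower in MPCs on that scale too. Tgfbr1 was closer, at 1.47 and 1.69 UMIs per cell in MPCs against 1.57 and 2.12 in fibroblasts.

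**Figure D2:**
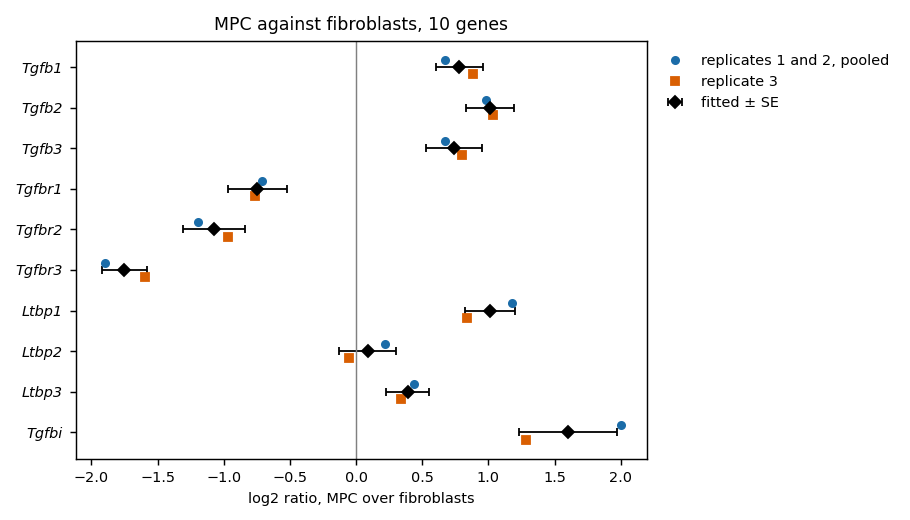
Log2 ratio of MPCs over fibroblasts (x axis) for the 10 genes (y axis), with the fitted value and its standard error (black diamonds) and the ratio in each library (blue circles, replicates 1 and 2 pooled; orange squares, replicate 3). The 3 ligands and Ltbp1 lie right of 0 and the 3 receptors left of 0 in both libraries, and Ltbp2 lies on both sides.

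Macrophages had another set of components. Of the 10 genes, 4 were higher and 4 lower than the mean of the other classes, beside 26.2% and 16.3% of all genes. Tgfb1 was 4.62-fold higher (log2 2.21 ± 0.12, adjusted p = 5.07e-11, edgeR) and Tgfbr1 2.71-fold (log2 1.44 ± 0.19, adjusted p = 4.89e-06), and Tgfbi was also higher (adjusted p = 9.56e-09). Tgfbr2 was 1.43-fold higher (log2 0.52 ± 0.19, adjusted p = 0.04), which passed with neither DESeq2 (adjusted p = 0.111), limma (adjusted p = 0.115) nor clusters in place of the gate (adjusted p = 0.0754). Tgfb2 (log2 −3.69 ± 0.72, adjusted p = 0.000399), Tgfb3 (log2 −2.20 ± 0.66, adjusted p = 0.0117), Tgfbr3 (log2 −3.42 ± 0.26, adjusted p = 5.64e-09) and Ltbp3 (log2 −1.98 ± 0.36, adjusted p = 0.000197) were lower. Ltbp1, with 2 and 4 UMIs in macrophages, had an edgeR contrast with no stable standard error, which is not given, and was lower with limma (adjusted p = 0.000105). Limma called 3 of the 10 genes higher and 6 lower in macrophages, beside 22.6% and 27.1% of all genes.

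The standing of Tgfb1 in macrophages depended on the scale. Macrophages had a median of 12210 and 14351 UMIs per cell, against 48432 and 48827 in MPCs. Per cell, Tgfb1 was at 3.43 and 4.45 UMIs in macrophages, against 3.51 and 4.26 UMIs in MPCs. Fibroblasts had 1.43 and 1.69 Tgfb1 UMIs per cell. Since MPCs were also the largest class, they held 36.0% and 42.4% of the Tgfb1 UMIs of the 8 classes, macrophages 27.6% and 26.1%, and endothelial cells 11.3% and 10.2%. For Tgfb2 the share held by MPCs was 78.7% and 80.4%, for Tgfb3 73.9% and 75.6%, and for Ltbp1 84.2% and 79.9%. These shares count captured cells, and capture may differ between cell types.

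**Figure D3:**
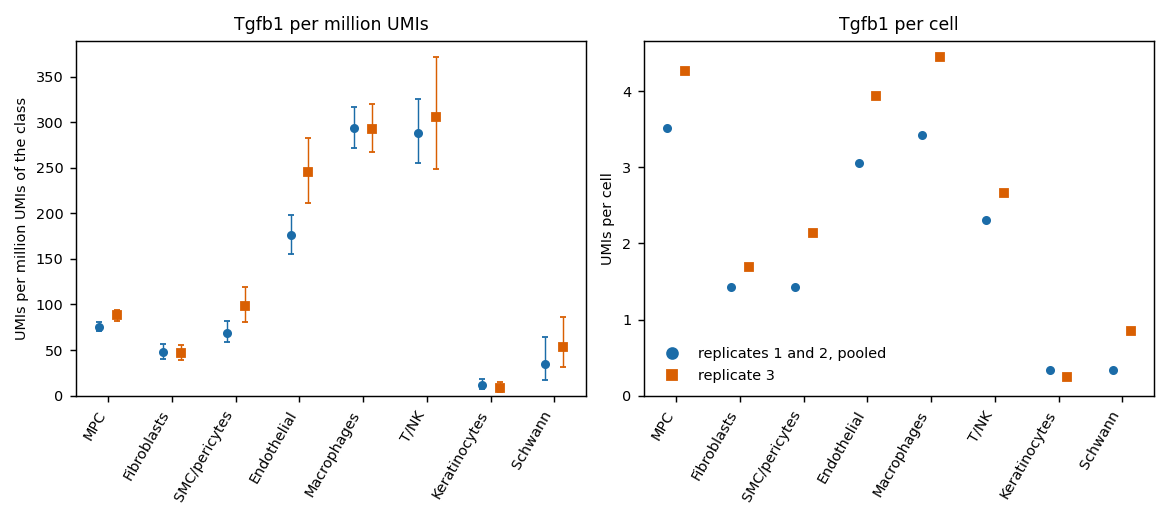
Tgfb1 in 8 cell classes (x axis) on 2 scales, UMIs per 1000000 UMIs of the class with exact Poisson 95% intervals (left) and UMIs per cell (right), for 2 libraries (blue circles, replicates 1 and 2 pooled; orange squares, replicate 3). Macrophages stood far above MPCs on the left (294 and 293 against 75.6 and 87.9 CPM) and beside them on the right (3.43 and 4.45 against 3.51 and 4.26 UMIs per cell).

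In endothelial cells, 3 of the 10 genes were higher and 0 lower, beside 18.9% and 8.53% of all genes (edgeR). They were Tgfbr3 (3.31-fold, log2 1.73 ± 0.15, adjusted p = 5.83e-08), Tgfb1 (2.46-fold, log2 1.30 ± 0.14, adjusted p = 7.08e-07) and Tgfbr2 (1.78-fold, log2 0.83 ± 0.20, adjusted p = 0.00346). For the count of 0 lower, 1 of the 10 genes had an unadjusted p under 0.05 in edgeR, 1 (Tgfb3) passed with DESeq2, beside 10.0% of all genes, and 2 (Tgfb3 and Ltbp2) with limma, beside 19.3%. Tgfb3 in endothelial cells had a log2 ratio of −1.48 ± 0.61 (adjusted p = 0.0811, edgeR). In smooth muscle cells and pericytes, 3 genes were higher and 1 lower, beside 21.4% and 7.62% of all genes. Tgfb3 was 9.75-fold (log2 3.29 ± 0.25, adjusted p = 7.37e-09) and Tgfb2 9.52-fold higher (log2 3.25 ± 0.21, adjusted p = 7.85e-10), Ltbp1 was also higher (adjusted p = 2.02e-06), and Tgfbr2 was lower (log2 −1.30 ± 0.24, adjusted p = 0.000378). The vessel wall classes were not compared with each other. Ltbp2 in smooth muscle cells and pericytes (0 and 3 UMIs) was too sparse to order.

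Level patterns over the 16 sums of 8 classes and 2 libraries were compared by Pearson's r of log2(CPM + 1), as a description. Among the 45 pairs of the 10 genes, 6 had r of at least 0.8: Tgfb2 with Ltbp1 (0.96), Tgfb3 (0.92) and Ltbp3 (0.91), Ltbp1 with Ltbp3 (0.95), and Tgfb3 with Ltbp1 (0.87) and Ltbp3 (0.84). Tgfb1 and Tgfbi were in none of these. Over 12774 genes, patterns like that of Tgfb1 included those of Crlf2 (0.95) and Serinc3 (0.94). Those most like Tgfb2 were Uggt2 (0.98), the lysyl oxidase family member Loxl2 (0.97) and the proteoglycan gene Bgn (0.97). For Tgfb3 they were L3hypdh (0.95), Fhl1 (0.95) and Gpc4 (0.95), and for Tgfbi Rcan1 (0.95), Lrp12 (0.90) and Mfsd11 (0.90). The sums of 1 class share cell type and those of 1 library share depth.

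Other genes of the pathway were counted on 4 lists, to be read beside the shares of all genes that were higher and lower in each class: 29.5% and 12.7% in MPCs, 26.8% and 9.01% in fibroblasts, 26.2% and 16.3% in macrophages, 18.9% and 8.53% in endothelial cells, and 21.4% and 7.62% in the mural class (smooth muscle cells and pericytes). In MPCs, 10 of the 15 tested latency partners and activators were higher and 1 lower than in the other classes (median log2 2.08, against 0.09 over all genes), with Fbn2, Mmp2 and Emilin1 in front. Fibrillin-2 is a microfibril protein that anchors LTBPs, MMP2 is a gelatinase and EMILIN1 an elastic-fibre protein that restrains TGF-beta processing. Of 17 target genes, 13 were higher and 2 lower in MPCs (median log2 2.97), led by the collagen receptor subunit Itga11, the protease inhibitor Timp1 and fibronectin, Fn1. Of 9 genes of signal transduction and accessory receptors, 4 were higher and 1 lower, and of 11 feedback inhibitors 3 were higher and 2 lower, among them Pmepa1 (log2 2.15 ± 0.10), which sequesters SMADs. In fibroblasts 10 of the 15 latency partners and activators were higher and 1 lower (median log2 2.56), and 13 of the 17 target genes were higher and 1 lower (median log2 3.16). Fibroblasts also had 7 of the 11 feedback inhibitors higher. Mural cells had 14 target genes higher (median log2 2.00). Macrophages had 6 latency partners and activators higher and 2 lower (median log2 −0.44, against −0.06), led by Nrros (log2 6.51 ± 0.20, adjusted p = 2.05e-14, edgeR), which tethers latent TGF-beta1 on myeloid cells, and Thbs1 (log2 4.33 ± 0.18), a thrombospondin that activates it. They had 3 target genes higher and 7 lower. Endothelial cells were led by Ltbp4 (log2 4.56 ± 0.15), Lrrc32 (log2 4.44 ± 0.26), which tethers latent TGF-beta, and Eng (log2 5.59 ± 0.14), the co-receptor endoglin, and had 9 of 17 target genes higher and 2 lower. Their latency partners and activators went both ways, with 6 of 15 higher and 4 lower (median log2 −0.06, against 0.03 over all genes). Lrrc32 was not particular to endothelial cells, where it was at 140 and 101 CPM. In mural cells it was also higher (log2 4.10 ± 0.26), at 113 and 72.4 CPM.

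Between MPCs and fibroblasts these lists were mixed, with 4 latency partners and activators higher and 4 lower in MPCs, 1 and 2 of the signal transduction genes, 0 and 4 of the feedback inhibitors, and 3 and 5 of the target genes, beside 5.79% of all genes higher and 9.19% lower. Thbs1 (log2 1.48 ± 0.25) and Cd109 (log2 1.49 ± 0.22), a co-receptor that binds TGF-beta, were higher in MPCs. Lrrc32 (log2 −2.19 ± 0.21), Acvrl1 (log2 −1.39 ± 0.19), a type I receptor known from endothelium, Eng (log2 −1.18 ± 0.20) and the inhibitory SMAD genes Smad6 (log2 −1.21 ± 0.38) and Smad7 (log2 −0.75 ± 0.20) were lower. For the 0 feedback inhibitors higher, the count was 1 at an unadjusted p under 0.05 in edgeR, 0 with DESeq2 and 0 with limma.

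In the sections, a spot covers a small region that can hold several cells. Spots were called by marker UMIs beyond the rate of the section: 32 and 149 spots were myeloid, 23 and 33 wound mesenchyme, and 5 other tissue classes were fitted with them. Wound mesenchyme markers included Postn, Tnc and Lox, and their response to TGF-beta was not tested either. Tendon spots, 13 in A1 and 17 in B1, fell under the limit of 15 spots in A1 and entered no comparison. Wound mesenchyme was therefore not set against tendon. Of the 10 genes, Tgfb2, Tgfbr1 and Ltbp1 had too few UMIs for a test. Over whole sections A1 and B1 held 44 and 92 UMIs of Tgfb2, 89 and 91 of Tgfbr1, and 53 and 101 of Ltbp1. Fewer cells of a type in a spot and less RNA per cell cannot be told apart in these sums.

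Tgfb1 stood out in myeloid spots. It had 17 UMIs in A1 and 181 in B1 there, or 658 (384 to 1054) and 1258 (1081 to 1455) CPM, against 352 (188 to 602) and 252 (156 to 385) CPM in wound mesenchyme spots, whose interval overlapped that of myeloid spots in A1. In the 5 other tissue classes Tgfb1 was at 58 to 234 CPM in A1 and 118 to 325 CPM in B1. Against the mean of the other 6 classes, Tgfb1 was 9.35-fold higher (log2 3.22 ± 0.26, adjusted p = 7.53e-25, edgeR), with log2 ratios of 2.21 and 3.66 in the sections. The fold and these ratios are on TMM-scaled counts, with factors from 0.579 to 1.20 over the 14 sums. The CPM values are unscaled, and in B1 they differ by less than the ratio of 3.66. Tgfb1 was the only gene of 7 tested that was higher, and Tgfb3 the only one lower, beside 20.7% and 8.69% of all 2556 genes. Tgfb3 had 0 and 5 UMIs in myeloid spots (log2 −1.66 ± 0.65, adjusted p = 0.0396), which passed neither with DESeq2 (adjusted p = 0.167) nor with a stricter gate (adjusted p = 0.144). Tgfbr3 differed between the sections, at 465 CPM in myeloid spots of A1 and 41.7 CPM in those of B1. The myeloid spots of A1 also carried 10845 CPM of epidermal markers, against 3955 CPM in B1, and the part of these cells in the values was not tested.

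Wound mesenchyme spots differed from the other classes in Tgfbi. It had 14 and 80 UMIs there, or 379 (207 to 637) and 960 (761 to 1195) CPM, and was 2.29-fold higher (log2 1.19 ± 0.28, adjusted p = 0.00163, edgeR). It was the only one of the 7 genes that passed, beside 5.28% of all genes higher, and 0 of the 7 were lower, beside 2.27% (0 at an unadjusted p under 0.05, 0 with DESeq2 and 0 with limma). The result rested on B1: the log2 ratio was 0.26 in A1 and 1.63 in B1, and the call was lost in DESeq2 (adjusted p = 0.1) and limma (adjusted p = 0.165). Wound mesenchyme spots were also deep, with a median of 1602 and 2580 UMIs. Ungated spots within the quartiles of those UMIs were less deep, with a median of 1424 and 1841 UMIs. Against these, Tgfbi was at 379 CPM in A1 against 324 CPM in the ungated spots, and at 960 CPM in B1 against 595 CPM in the ungated spots. Tgfbr2 (352 and 252 CPM, log2 0.99 ± 0.39, adjusted p = 0.113, edgeR) and Ltbp2 (190 and 216 CPM, log2 1.01 ± 0.47, adjusted p = 0.202, edgeR) did not pass. In tendon spots, outside the fit, Tgfbr2 was at 385 and 110 CPM (9 and 3 UMIs) and Ltbp2 at 171 and 257 CPM (4 and 7 UMIs). Tgfbi was at 299 and 440 CPM there. Markers of epidermis summed to 8861 and 8220 CPM in wound mesenchyme spots, close to the 8303 and 8024 CPM of ungated spots.

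**Figure D4:**
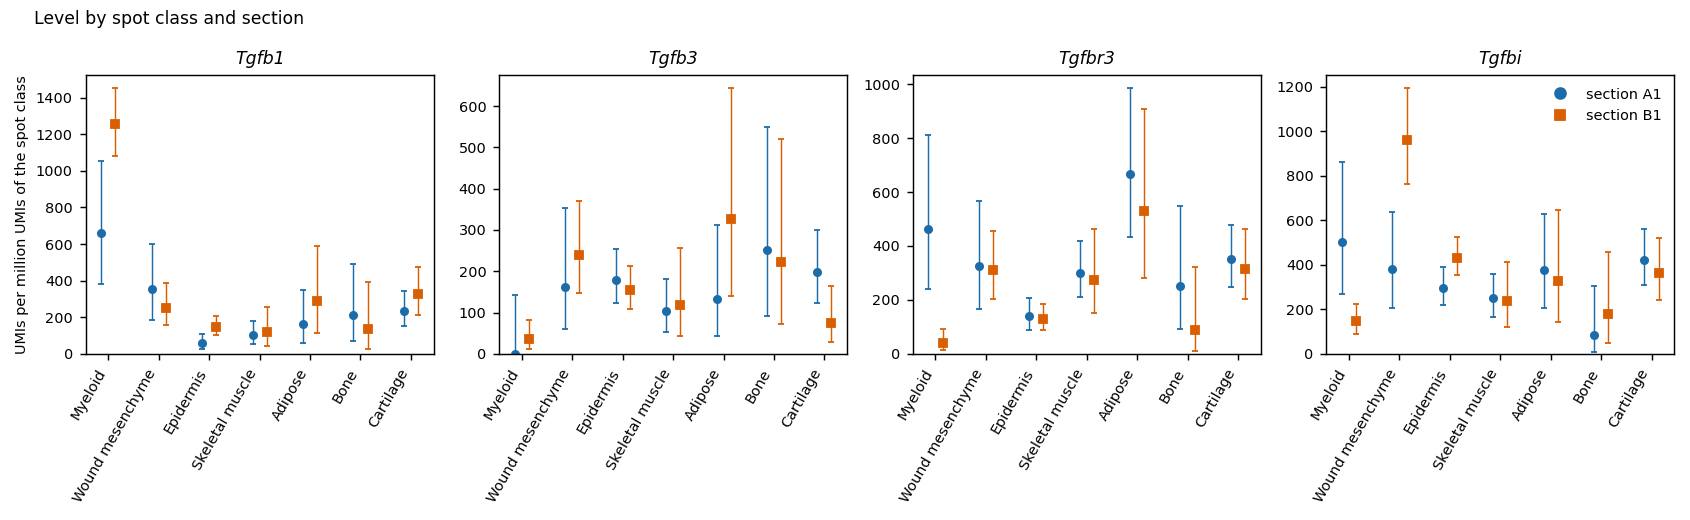
Level of 4 genes (y axis, UMIs per 1000000 UMIs of the spot class, linear from 0, each panel with its own scale) in 7 spot classes (x axis) of section A1 (blue circles) and section B1 (orange squares), with exact Poisson 95% intervals. Tgfb1 was highest in myeloid spots of both sections (658 and 1258 CPM), and Tgfbi was highest in wound mesenchyme spots of B1 (960 CPM) but not of A1 (379 CPM).

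Levels by distance, in steps from a spot to its neighbour, were read without a test. Around wound mesenchyme spots, Tgfbi in B1 was at 960 CPM in the spots themselves, 686 CPM at 1 step, 550 at 2, 387 at 3 to 5, 246 at 6 to 10 and 280 CPM beyond 10 steps. In A1 the same rings held 379, 457, 435, 287, 298 and 248 CPM, a smaller range. Ltbp2 had 190 and 216 CPM in the spots and 57.1 and 64.4 CPM beyond 10 steps, with values between these in all rings of both sections. Median UMIs per spot also dropped with distance, to 346 and 379 beyond 10 steps, so the rings differ in depth. Around myeloid spots, Tgfb1 in B1 was at 1258 CPM in the spots, 390 CPM at 1 step and 208 CPM at 2, and in A1 at 658, 35.7 and 240 CPM.

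**Figure D5:**
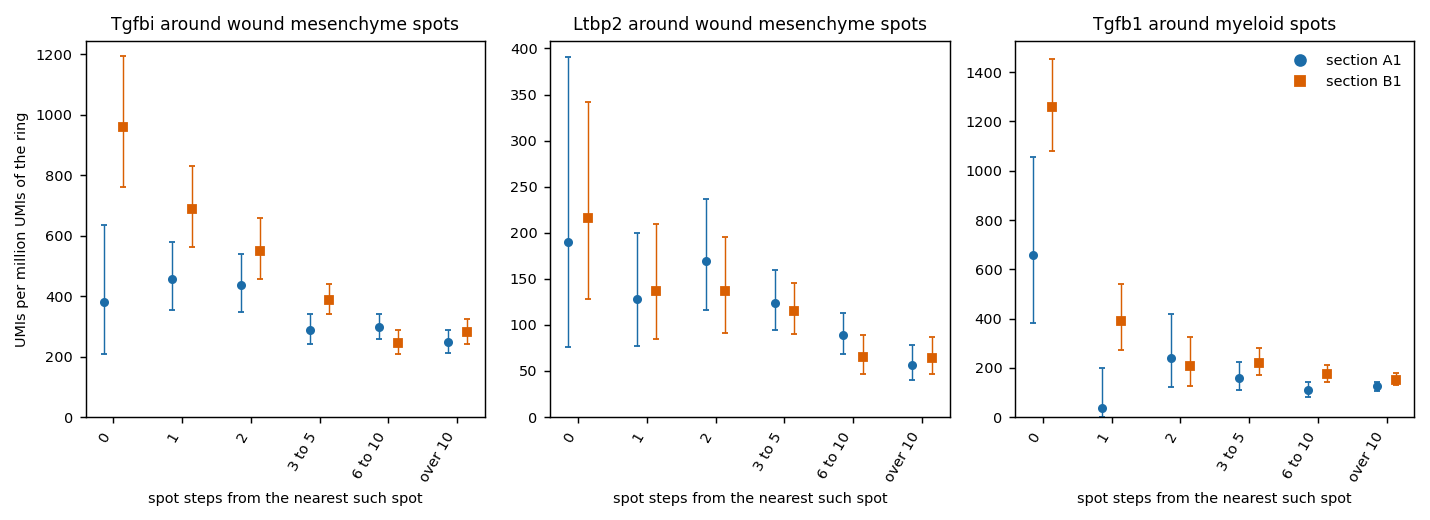
Level (y axis, UMIs per 1000000 UMIs of the ring, linear from 0) by distance in spot steps (x axis) from the nearest wound mesenchyme spot (Tgfbi, Ltbp2) or myeloid spot (Tgfb1), in section A1 (blue circles) and B1 (orange squares), with exact Poisson 95% intervals. Tgfbi in B1 was at 960 CPM in the spots and 280 CPM beyond 10 steps, and Tgfb1 dropped within 1 step of myeloid spots.

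Moran's I, a score of how alike neighbouring spots are, was taken as deposited. Tgfb1 had 0.088 in B1, rank 199 of 19222 genes, and 0.007 in A1. Tgfbi had 0.044 in B1 and 0.012 in A1, and Ltbp2 0.036 in A1 and 0.008 in B1. Tgfbr3 had 0.020 in A1 and 0.034 in B1, higher than 95.3% and 96.1% of genes, the single gene of the 10 above 95% of genes in both sections.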

How the data were processed

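Single-cell and Visium UMI counts were as the authors deposited them, from Cell Ranger 5.0.1 and, per the file headers, Space Ranger 2.0.1 on mm10. Moran's I scores were deposited by the authors per gene and section. The quality limits for cells were 200 genes or more, mitochondrial UMIs of 20% or less, ribosomal UMIs of 5% or more, and UMIs and genes up to the 99th percentile. A marker was on above its mean CPM, and a cell was gated to the lineage with at least 40% of its markers on and a lead of 15 percentage points. Mesenchymal cells were split into MPCs and fibroblasts by a lead of 5 points. Scrublet marked 6 and 4 doublets, which were kept. A spot was gated where the Poisson tail of its marker UMIs was under 0.001. Washout after tamoxifen differs between the labels and the methods.

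Counts were summed per class and library (16 sums, 286264 to 11292764 UMIs) or per class and section (14 sums, 22470 to 238542 UMIs), filtered with filterByExpr, scaled by TMM and tested with edgeR 4.0.16, blocked on the library or section, against the equal-weight mean of the other classes. This left 7 and 6 residual degrees of freedom. The block is the sample itself, since all classes of a sample share it. P-values were adjusted over all genes tested. DESeq2 1.42.0 and limma 3.58.1 (prior count 2) were alternatives, and other size factors, filters and gates were tried. The edgeR fit was checked on simulated counts, only for MPCs and for wound mesenchyme spots against the other classes. DESeq2, limma and the contrast of MPCs with fibroblasts were not simulated. The 10 genes, all named, and the lists were chosen with earlier results of these data known. Up to 3 genes of a list, those with the largest change past the threshold and with 1 sign in both samples, were eligible to be named, and the 3 genes most like each ligand and Tgfbi. A gene that met the likeness rule is not reported here. The block takes out the difference between the 2 samples that all classes share. P-values therefore rest on how far class differences varied between these 2 samples, pooled over all classes. They do not measure the spread between mice, and 1 single-cell library pools replicates.

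The 3′ tag may lie outside the deleted part of Hif1a, so its counts do not check the deletion. Gene positions and promoters were read from RefSeq on GRCm38.p6, the assembly of mm10.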

Additional observations from a re-analysis of the deposited data

Results flagged for a closer look

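Neutrophil-gated and mast-gated cells entered no comparison; most neutrophils fell under the ribosomal limit. With that limit lifted, the neutrophil gate held 41 and 20 cells, and 3 genes had more than 3 UMIs in both libraries. Tgfb1 was at 147 and 190 CPM in them, Tgfbr1 at 67.7 and 131 CPM, and Tgfbi at 575 and 712 CPM, from 26 and 16, 12 and 11, and 102 and 60 UMIs. Tgfb2, Tgfb3, Ltbp1, Ltbp2 and Ltbp3 had 0 UMIs in both. With the ribosomal limit in place, the gate held 10 and 2 cells. No cluster was named for neutrophils, so the clusters could not check this gate. The neutrophil values therefore rest on the gate alone. In 8 and 14 mast-gated cells, Tgfbr2 was at 159.8 and 169.8 CPM from 4 and 15 UMIs. Tgfbr1 was at 120 and 249 CPM in the mast-gated cells, from 3 and 22 UMIs. The highest of the compared classes had 92.3 and 60.2 CPM of Tgfbr1.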

How the results depend on the processing

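No gene of the 10 that passed changed direction under the alternatives run, ratios within single samples included. Of the values of single genes under alternatives, 28 no longer passed, 10 passed only in the alternative and 1 moved. That one was Tgfbi in B1 wound mesenchyme spots, with a log2 ratio of 0.69 against ungated spots matched in UMIs. Counts of genes that moved by over 1.5 times were these. With limma, 0 genes were higher and 1 lower in MPCs against fibroblasts, 2 were lower in endothelial cells, 2 were lower in smooth muscle cells and pericytes, and 0 were higher in wound mesenchyme spots. With DESeq2, 2 genes were higher in MPCs against fibroblasts, 1 was lower in endothelial cells, 0 were higher in wound mesenchyme spots and 0 lower in myeloid spots. Without the low-count filter, 1 was lower in endothelial cells and 2 were higher in myeloid spots (Tgfb1 and Tgfbr1), and with clusters in place of the gate 1 was lower in endothelial cells. Among smaller moves, limma gave 6 higher in MPCs, 8 higher in fibroblasts, and 3 higher and 6 lower in macrophages. With other size factors, without the replicate block and with a stricter gate, 0 were lower in myeloid spots. Without the replicate block, 4 genes instead of 5 were higher in MPCs against fibroblasts, and Tgfb3 there no longer passed (adjusted p = 0.057, edgeR). Except where given above, the share of all genes called under the same alternative was not counted. These counts therefore show how calls moved, not how the 10 genes stood beside all genes. Other size factors moved the median log2 of all genes in myeloid spots to 0.04, against −0.14 with TMM. The cause was not tested.

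Leaving out 1 library or section leaves no residual degrees of freedom, so only the ratio within the other sample is given, with no test. For MPCs against fibroblasts these ratios are in the plot of both libraries. Depth limited the sections. In a class of 22470 UMIs, 3 UMIs are 134 CPM, and Tgfb2, Tgfbr1 and Ltbp1 were not tested because of the low-count filter.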
